A study of Mus musculus with 6 samples.

Results

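Beta-catenin, the transcription factors that carry it to DNA and 7 further genes that this complex is known to switch on were followed in collecting duct cells that had or lacked Bdkrb2, which encodes the B2 receptor of the peptide bradykinin. The 10 genes were a list of symbols (Ctnnb1, Lef1, Tcf7, Axin2, Nkd1, Rnf43, Znrf3, Sp5, Lgr5 and Tnfrsf19) chosen with earlier results of these data known. Every probe that carries one of them was reported. This gave 14 probes out of 55681 on the array, and 10 genes out of the 20887 that could be named. Lef1 and Tcf7 are counted here both as factors and, as is known from other tissues, as targets.

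In canonical Wnt signalling, beta-catenin is held low by a cytoplasmic complex of Axin, APC and kinases until a Wnt ligand binds a Frizzled receptor. It then accumulates, enters the nucleus and activates genes with a TCF or LEF protein as its partner on DNA. Several of its targets encode brakes on the same pathway, among them Axin2, Nkd1, Rnf43 and Znrf3, so their levels are widely read as a gauge of signalling. In the developing kidney beta-catenin acts in the ureteric bud, from which the collecting duct arises, and also in the nephron progenitors and the stroma around it.

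The 6 arrays held RNA of cells sorted on postnatal day 1 as positive for GFP and dsRED, 3 samples per genotype, all on a C57BL/6 background and from a breeding on food of 5% sodium, which the labels give as a high gestational salt status. The knockout (KO) pups carried a Hoxb7cre transgene, which is driven by a ureteric bud promoter, a R26RtdTomato reporter and Bdkrb2f/f. The wild-type (WT) pups carried the same Cre and reporter with Bdkrb2+/+ according to the labels, so that Cre, reporter and salt were common to both groups. The breeding described there names floxed parents only and does not account for the Bdkrb2+/+ pups, so the WT genotype rests on the sample labels. Each Agilent array of 2 colours carried the sample in Cy5 and the RNA of WT replicate 1 in Cy3 as a common reference, so that WT replicate 1 was hybridised against its own RNA. The dyes were not swapped. The number of animals in a sample is not stated in the labels, so p-values measure the spread between these samples only.

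On all 6 arrays no spot was saturated, and 49.8% to 57.5% of spots were well above background in Cy5. The processed Cy5 signal, which the scanner software subtracts for background and normalises between dyes but does not scale between arrays, had a 75th percentile of 282.4 to 309.1 on WT arrays and 547.6 to 625.4 on KO arrays. Processed signals are therefore given as the record of each spot, and groups are compared on log2 ratios of Cy5 over Cy3 after background correction and loess within each array. The probe of Bdkrb2 itself stayed near background throughout, well above it on 0 of 6 arrays (processed Cy5 of 2.98 to 5.70), so it could not check the genotype labels. The 9 principal cell markers that were tested, genes of the water- and sodium-reabsorbing cells of the duct, were well above background on all 6 arrays. Testing required this on 3 or more arrays, and a further marker, Scnn1g, was not tested. The tested markers of every other cell type listed below were also well above background on all 6 arrays, so this does not identify the cells.

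Of the 10 genes, 5 rose in KO (Lef1, Tcf7, Nkd1, Sp5 and Tnfrsf19), 1 fell (Rnf43) and 4 had no probe that passed the test (Ctnnb1, Axin2, Znrf3 and Lgr5). The largest increases were those of Nkd1, Tnfrsf19 and Sp5, each a little over 2-fold, and Rnf43 was 1.94-fold lower. Among all 14755 named genes tested by their brightest probe 32.2% passed, 13.8% higher and 18.5% lower. Taken by brightest probe, 5 of the 10 members were higher and 1 lower. The KO and WT ratios of 9 of the 10 did not overlap, against 52.1% of all named genes. Because the members were chosen with earlier results known, their shares here and below describe the list and do not test it. By probe, 6 of 14 rose and 1 fell at an adjusted p under 0.05 (limma with Benjamini-Hochberg adjustment over 29811 probes), which is 50% of the 14. Among all probes tested 25.3% passed, 11.2% higher and 14.2% lower. That split turned with median centring in place of loess, where 4645 probes passed as higher and 1373 as lower, and the 7 member probes passed there in the same directions. The KO and WT ratios did not overlap for 10 of the 14 probes (71.4%), against 45.2% of all probes. KO lay above WT for 7 of them and below for 3, where the shares among all probes were 21.6% and 23.6%. The median difference of the 14 probes was 0.21 on the log2 scale, while that of all probes was 0.00. When slide row was blocked, so that KO was set against WT replicate 1 alone, 2 of the 7 calls were kept, those of Sp5 and of the brighter Tnfrsf19 probe.

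**Figure D1:**
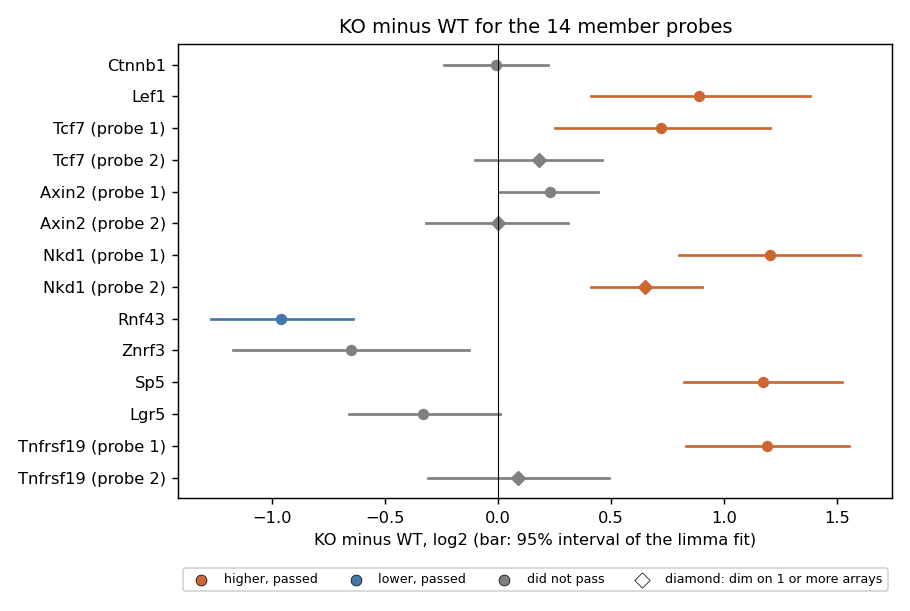
KO minus WT on the log2 scale (x axis) for the 14 probes of the 10 genes (y axis), with the 95% interval of the limma fit over 3 KO and 3 WT arrays. Orange and blue mark probes that passed the test as higher or lower, grey those that did not, and diamonds probes that were not well above background on every array. The intervals of the 7 probes that passed lie clear of 0, as do those of Znrf3 and the first Axin2 probe, which did not pass after adjustment, and that of Ctnnb1 spans -0.24 to 0.22.

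Promoter sequence was examined because several target genes rose together. Of the 10 genes, 8 had an entry in the RefSeq promoter table (assembly GRCm38.p6, 250 bases before to 50 after each start), with 15 promoters in all. Both strands were searched for CTTTGAA and CTTTGAT, the core letters bound by TCF and LEF proteins. A promoter of Sp5 and the second promoter of Tnfrsf19 held a match, which is 13.3% of the 15 promoters, beside 8.7% of all 32851 promoters of this length. By gene this is 2 of 8, or 25% of them, beside 9.9% of all genes with a promoter. These 2 genes are shown with the 250 bases before the start, 5′ to 3′ on the strand of the gene, with the matched letters in capitals. The Sp5 stretch is chr2:70474673-70474922 on the plus strand and the Tnfrsf19 stretch is chr14:61037988-61038237 on the minus strand. A match describes these letters and does not show that a protein binds there.
Sp5: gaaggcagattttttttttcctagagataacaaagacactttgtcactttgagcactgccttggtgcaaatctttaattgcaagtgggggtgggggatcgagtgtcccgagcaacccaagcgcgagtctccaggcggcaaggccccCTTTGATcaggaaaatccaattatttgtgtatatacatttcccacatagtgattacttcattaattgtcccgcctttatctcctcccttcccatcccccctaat
Tnfrsf19: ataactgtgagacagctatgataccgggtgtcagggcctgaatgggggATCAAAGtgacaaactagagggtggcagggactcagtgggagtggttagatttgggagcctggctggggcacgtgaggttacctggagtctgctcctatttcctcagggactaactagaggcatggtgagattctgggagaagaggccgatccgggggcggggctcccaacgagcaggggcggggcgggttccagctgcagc
The match in Sp5 begins 104 bases before the start, read as written. In Tnfrsf19 it lies on the opposite strand and begins 202 bases before the start. Lef1, Tcf7, Nkd1 and Axin2 had no such letters in these windows.

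Ctnnb1, the gene of beta-catenin itself, did not pass the test. Its probe A_52_P424585, with 2 spots per array, gave processed Cy5 signals of 5984, 5967 and 5131 in WT replicates 1 to 3 and 11629, 12517 and 10124 in KO replicates 1 to 3. The log2 ratios to the reference RNA were 0.27, 0.22 and 0.06 on the WT arrays and 0.15, 0.20 and 0.15 on the KO arrays, so the groups overlapped. The difference was -0.01 ± 0.10 (SE, n = 3 per group, 95% interval -0.24 to 0.22, adjusted p = 0.939). The interval corresponds to a KO level of 0.844 to 1.16 times that of WT. With each array centred on its median in place of loess the difference was 0.34, beside a shift of all probes to a median of 0.22, and it did not pass there either (adjusted p = 0.289).

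Lef1, a TCF family factor that joins beta-catenin on DNA, rose 1.86-fold in KO. Its single probe A_51_P420400 gave processed Cy5 signals of 354, 450 and 273 in WT and 891, 1490 and 1732 in KO. The log2 ratios were -0.01, 0.03 and -0.23 on the WT arrays and 0.36, 0.90 and 1.22 on the KO arrays. All KO values lay above the WT values, but they were spread more widely, with KO replicate 1 well below the other two. The difference was 0.89 ± 0.21 (95% interval 0.41 to 1.38, adjusted p = 0.0172). Without KO replicate 2, WT replicate 1 or WT replicate 3 the difference was 0.86, 0.92 and 0.81 and the threshold was missed (adjusted p = 0.0560, 0.0523 and 0.0802), and without KO replicate 1 the adjusted p was 0.000252. The threshold was also missed with the Agilent ratios (0.98, adjusted p = 0.0510), with Cy5 alone (0.92, adjusted p = 0.0815) and when slide row was blocked (0.84, adjusted p = 0.177).

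Tcf7, which encodes the factor TCF1, rose 1.65-fold by its brighter probe, A_52_P244702. The processed Cy5 signals were 147, 203 and 111 on the WT arrays and 614, 589 and 495 on the KO arrays. The log2 ratios were 0.10, 0.50 and -0.37 on the WT arrays and 0.94, 0.78 and 0.69 on the KO arrays. WT replicate 2 came nearest to the KO values and WT replicate 3 was the lowest. The difference was 0.72 ± 0.21 (adjusted p = 0.0369). Leaving out KO replicate 2, KO replicate 3, WT replicate 1 or WT replicate 3 made this probe miss the threshold, at 0.73, 0.78, 0.74 and 0.50 (adjusted p of 0.0618 to 0.0966). It also missed the threshold by the Agilent ratios, at 0.96 (adjusted p = 0.0655), and when slide row was blocked, at 0.70 (adjusted p = 0.250). The second probe, A_55_P2109633, was well above background on all KO arrays and 0 WT arrays, with processed Cy5 of 12, 17.9 and 4.21 in WT and 59.9, 44.4 and 33.8 in KO. It was tested only because the KO arrays passed the background limit. Its log2 ratios were -0.03, 0.08 and -0.17 on the WT arrays and 0.32, 0.04 and 0.05 on the KO arrays, which overlap, and the difference of 0.18 ± 0.12 did not pass (adjusted p = 0.321). By the Agilent ratios it was 0.73, and with Cy5 alone 1.23 with KO above WT without overlap. Neither passed (adjusted p = 0.229 and 0.133). The Cy3 signal of this probe itself differed by 0.50 between KO and WT arrays after centring.

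**Figure D2:**
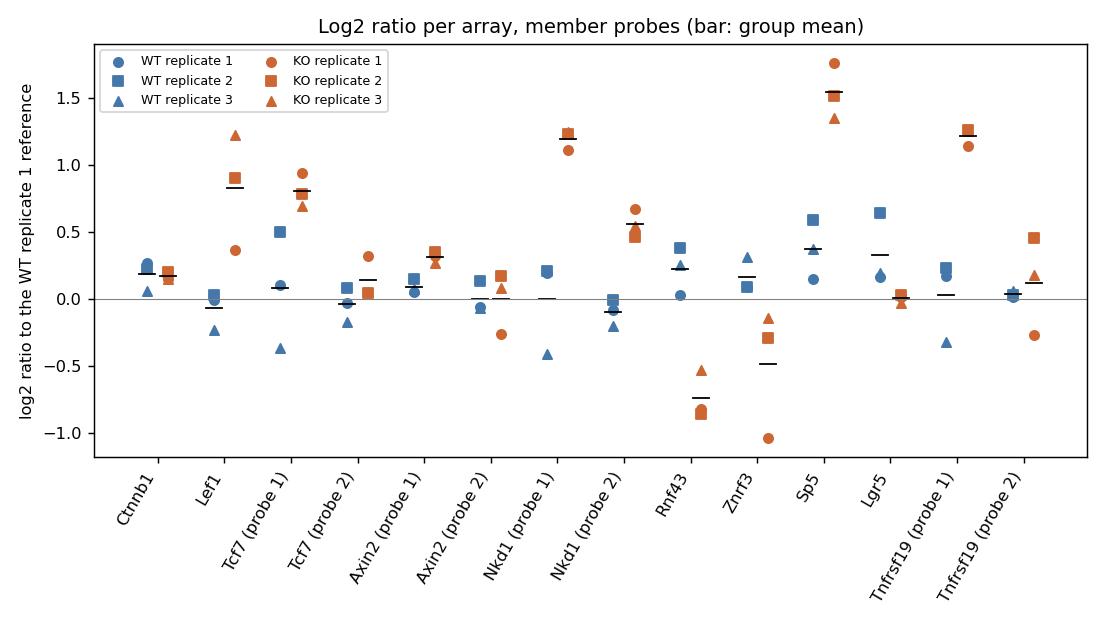
Log2 ratio of Cy5 (sample) over Cy3 (WT replicate 1 reference) on each of the 6 arrays (y axis) for the 14 probes (x axis), with WT in blue and KO in orange, a marker shape per replicate and a bar at each group mean. For Lef1, Nkd1, Sp5 and the first probes of Tcf7, Axin2 and Tnfrsf19 all KO points lie above all WT points, and for Rnf43, Znrf3 and Lgr5 all lie below.

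Among the target genes that encode brakes on the pathway 1 rose, 1 fell and 2 did not pass. Nkd1, which binds Dishevelled and dampens Wnt signalling, was higher by both of its probes. Rnf43 and Znrf3, related membrane ubiquitin ligases that remove Frizzled receptors from the cell surface, had KO values below all WT values, and only Rnf43 passed the test. Axin2, the inducible Axin of the destruction complex, did not pass by either of its probes.

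The brighter Nkd1 probe, A_55_P1967736, had processed Cy5 signals of 684, 739 and 424 in WT and 2828, 2958 and 2812 in KO. Its log2 ratios were 0.19, 0.21 and -0.41 on the WT arrays and 1.11, 1.23 and 1.24 on the KO arrays. The KO arrays were close to one another, and WT replicate 3 lay below the other WT arrays. The difference was 1.20 ± 0.17, a 2.29-fold higher level (95% interval 0.80 to 1.60 on the log2 scale, adjusted p = 0.00235). The dimmer probe, A_55_P2118694, missed the background limit on WT replicate 3 alone and gave ratios of -0.08, -0.01 and -0.20 in WT and 0.67, 0.46 and 0.54 in KO. Its difference was 0.65 ± 0.11 (adjusted p = 0.00401), and 1.35 by the Agilent ratios. The Cy3 signal of this dimmer probe was also higher on the KO arrays, by 0.41. Both probes kept their call when any single array was left out (adjusted p of up to 0.0120 and 0.0261) and missed the threshold when slide row was blocked, at 1.01 and 0.64 (adjusted p = 0.0592 and 0.0711).

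Rnf43 was the 1 member that fell. Its probe A_55_P2079619 gave processed Cy5 signals of 1026, 1484 and 1065 in WT and 1080, 1119 and 1206 in KO, which overlap, on KO arrays with the higher 75th percentile given above. Relative to the reference the log2 ratios were 0.03, 0.38 and 0.25 on the WT arrays and -0.82, -0.86 and -0.53 on the KO arrays, with no overlap. The difference was -0.96 ± 0.14 (95% interval -1.27 to -0.64, adjusted p = 0.00225). It kept its call when any array was left out (adjusted p of up to 0.0162) and missed the threshold when slide row was blocked (-0.77, adjusted p = 0.0574).

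Znrf3 gave processed Cy5 signals of 103, 120 and 120 in WT and 78.0, 162 and 170 in KO by probe A_55_P2145252. The log2 ratios were 0.09, 0.09 and 0.31 on the WT arrays and -1.04, -0.29 and -0.14 on the KO arrays. The groups did not overlap, but KO replicate 1 lay far below the other KO arrays. The difference of -0.65 ± 0.22 did not pass the test (adjusted p = 0.0703). Without KO replicate 1 it was smaller, -0.37, and passed (adjusted p = 0.0334), and without KO replicate 3 it was -0.83 and also passed (adjusted p = 0.0407). It passed with the replicate block too (adjusted p = 0.039). With median centring in place of loess, with Cy5 alone and without WT replicate 3 it was -0.44, -0.81 and -0.58. None of these passed (adjusted p = 0.25, 0.137 and 0.22). The centred Cy3 signal of this probe was higher on the KO arrays than on all WT arrays, by 0.24.

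Axin2 was measured by 2 probes of low signal. A_55_P2000783 gave processed Cy5 signals of 17.6, 29.3 and 18.5 in WT and 91.0, 88.0 and 69.0 in KO, each well above background. Its log2 ratios were 0.05, 0.15 and 0.07 on the WT arrays and 0.32, 0.35 and 0.27 on the KO arrays, so that the groups did not overlap. The difference was 0.23 ± 0.09 and did not pass (adjusted p = 0.115). The offset of 50 in the background correction exceeds the WT signals of this probe and draws such ratios and their errors towards 0. By the Agilent ratios the difference was 0.45 (adjusted p = 0.300). With Cy5 alone, which leaves out the reference channel, it was 0.97 and passed (adjusted p = 0.0239). The Cy3 signal of this probe, from the same reference RNA on every array, itself differed by 0.53 between KO and WT arrays after centring and was well above background on 3 of 6 arrays. The other probe, A_66_P134405, was well above background on WT replicate 2 and KO replicates 2 and 3 only and gave a difference of 0.00 ± 0.14 (adjusted p = 0.984), with -0.27 by the Agilent ratios and 0.26 with Cy5 alone.

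**Figure D3:**
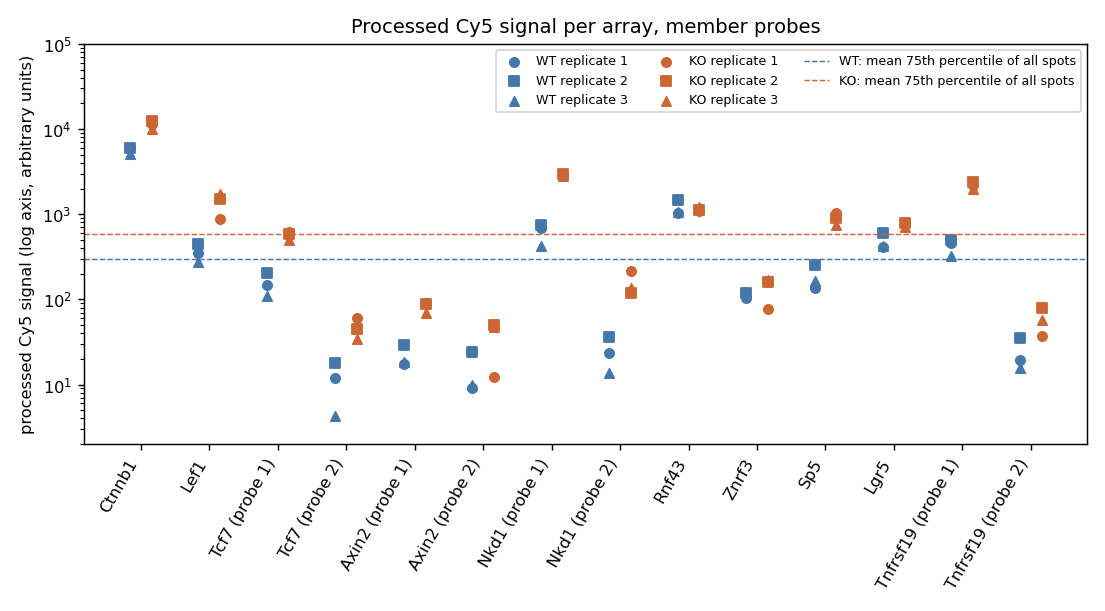
Processed Cy5 signal of each array (log axis, arbitrary units) for the 14 probes (x axis), with WT in blue, KO in orange and a marker shape per replicate. Dashed lines are the group means of the 75th percentile of all spots and show the brighter KO arrays. Rnf43 and Znrf3 overlap here, whereas Nkd1, Sp5 and the first probes of Tcf7, Axin2 and Tnfrsf19 are further above WT than the lines are apart.

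Sp5, Tnfrsf19 and Lgr5 are targets with other roles. Sp5, a zinc-finger factor that acts on other Wnt targets, rose 2.25-fold. Its probe A_51_P404193 gave processed Cy5 signals of 135.6, 250.7 and 164.3 in WT and 1044, 899 and 745 in KO. The log2 ratios were 0.15, 0.59 and 0.37 on the WT arrays and 1.76, 1.51 and 1.35 on the KO arrays, with the lowest KO array clear of the highest WT array. The difference was 1.17 ± 0.15 (95% interval 0.82 to 1.52, adjusted p = 0.00156). It passed under each of the 16 alternatives run, at 1.39 when slide row was blocked (adjusted p = 0.0162).

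Tnfrsf19, a TNF receptor family member also called TROY that marks stem cells of other epithelia, rose 2.29-fold by probe A_55_P2012439. The processed Cy5 signals were 457, 504 and 324 on the WT arrays and 2206, 2360 and 1980 on the KO arrays. The log2 ratios were 0.17, 0.23 and -0.32 on the WT arrays and 1.14, 1.26 and 1.25 on the KO arrays, with KO arrays close together and WT replicate 3 lowest. The difference was 1.19 ± 0.15 (95% interval 0.83 to 1.55, adjusted p = 0.00153), and it passed under all 16 alternatives (1.05 and adjusted p = 0.0419 when slide row was blocked). The second probe, A_55_P2012444, with processed Cy5 of 15.8 to 34.9 in WT and 36.7 to 79.7 in KO, gave 0.09 ± 0.17 (adjusted p = 0.740), with a KO replicate 1 ratio of -0.27 against 0.45 in KO replicate 2, and was well above background on 5 of 6 arrays.

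Lgr5, an R-spondin receptor and stem cell marker, did not pass the test. Probe A_55_P2126192 gave processed Cy5 signals of 415, 606 and 425 in WT and 806, 794 and 716 in KO. The log2 ratios were 0.16, 0.64 and 0.19 on the WT arrays and 0.01, 0.03 and -0.03 on the KO arrays, so that all KO arrays lay below the WT arrays and WT replicate 2 stood apart as high. The difference was -0.33 ± 0.14 (95% interval -0.66 to 0.01, adjusted p = 0.136), and -0.17 without WT replicate 2 (adjusted p = 0.308). With median centring in place of loess it was -0.04 (adjusted p = 0.912), and when slide row was blocked -0.15.

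WT replicate 2 had the highest ratio of the 3 WT arrays for 11 of the 14 probes, and WT replicate 3 the lowest for 8. For 7 genes that mark branching ureteric tips, WT replicate 2 also stood apart, with a median ratio of 1.19 against -0.06 in WT replicate 1 and 0.29 in WT replicate 3. The self-hybridised WT replicate 1 array gave ratios between -0.08 and 0.27 for the 14 probes. Over the 6 member probes that passed and were well above background on all arrays, the centred Cy3 signal of the reference differed between KO and WT arrays by -0.07 to 0.03, while their Cy5 signal differed by -1.03 to 1.39. For the dimmer Nkd1 probe, the other one that passed, Cy3 differed by 0.41 with the KO arrays above all WT arrays, beside 1.75 in Cy5.

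The genes whose ratios over the 6 arrays were most like those of Nkd1 were Mmp2, a matrix metalloproteinase gene (Pearson r = 0.999), Tnfrsf19 (r = 0.999) and Lhpp (r = 0.995), out of 4618 genes with a range of at least 0.5 of its own. Those most like Rnf43 were Meltf (r = 0.999), Als2cl (r = 0.998) and Ly6e (r = 0.997), out of 6982 genes. These correlations describe 6 arrays that share 1 reference and fall into 2 groups, so any gene with a like group difference scores highly. Mmp2 rose by 1.66 in KO (adjusted p = 0.00163), and Meltf fell by 1.31 (adjusted p = 0.00203).

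The rest of the pathway was described with 74 further genes in 4 lists by role, of which 66 were tested by their brightest probe. Of these, 15 rose and 7 fell, or 22.7% and 10.6%, with a median of 0.02. Among all 14755 named genes tested in this way 32.2% passed, 13.8% higher and 18.5% lower, with a median of -0.02. The groups did not overlap for 34 of the 66, against 52.1% of all named genes. The count of pathway genes that passed was 14 without WT replicate 1, 8 without WT replicate 3 and 3 when slide row was blocked, the last being Ccn4, Mycn and Ror2.

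Wnt receptors went both ways. Of 16 tested, 6 rose and 3 fell, with a median of 0.12. Ror2, a receptor kinase of noncanonical Wnt signalling, had log2 ratios of 0.11, 0.21 and -0.02 in WT and 1.20, 0.92 and 0.82 in KO, a difference of 0.88 ± 0.13 (adjusted p = 0.00243). The Frizzled receptors Fzd7, Fzd2 and Fzd1 rose by 0.75, 0.71 and 0.58 (SE 0.12 each). Fzd10 and Ryk, named after their values were seen, rose by 1.02 ± 0.21 and 0.56 ± 0.12, and Fzd10 was the largest increase among the receptors. The receptors that fell, named after their values were seen, were Fzd4 (-1.19 ± 0.32), Fzd8 (-0.74 ± 0.16) and Fzd6 (-0.43 ± 0.12). Fzd4 was lowest on KO replicate 1, at -1.76 against -0.71 and -0.39 on the other KO arrays. With median centring in place of loess Fzd4, Fzd8 and Fzd6 were at -0.89, -0.54 and -0.15, and none passed (adjusted p = 0.0706, 0.122 and 0.669). By the Agilent ratios Fzd4, Fzd6 and Fzd10 missed the threshold (adjusted p = 0.0718, 0.0962 and 0.0564), and Fzd8 passed (adjusted p = 0.0335). Fzd4 and Fzd6 also missed it with Cy5 alone (adjusted p = 0.0629 and 0.121) and when any WT array was left out (adjusted p of 0.0535 to 0.114). Fzd8 missed it without WT replicate 1 or 3 (adjusted p = 0.0516 and 0.0544).

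The next list held genes of the destruction complex and of the Dishevelled proteins, which turn beta-catenin over and relay the receptor signal. Each gene written in this list was tested. Of 16 genes tested 2 rose and 0 fell, with a median of -0.08, where 32.2% of all named genes passed. Btrc, the ubiquitin ligase subunit that recognises beta-catenin, and the casein kinase gene Csnk1a1 rose by 0.55 ± 0.11 and 0.53 ± 0.15. Dvl3 and Dvl1 did not pass, at -0.93 ± 0.38 and -0.28 ± 0.12, and the Dvl3 ratio on KO replicate 1 was -1.52 against -0.25 and -0.06 on the others. With the replicate block Dvl3 passed at -0.93 (adjusted p = 0.0126). Without WT replicate 3 neither Btrc nor Csnk1a1 passed (adjusted p = 0.0594 and 0.135). Csnk1a1 also missed the threshold with Cy5 alone and without WT replicate 1 or 2 (adjusted p = 0.0678, 0.0704 and 0.0821), where Btrc passed.

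Among nuclear partners 2 of 18 rose and 2 fell, with a median of -0.07. Tcf7l1, the TCF3 factor that mostly represses targets, rose by 0.57 ± 0.13 (adjusted p = 0.0163). Of the Groucho-family genes, Tle4 was higher (0.49 ± 0.13) and Tle2 and Tle5 were lower (-0.49 ± 0.11 and -0.62 ± 0.14), while Tle1 (0.54 ± 0.30) and Tle3 (-0.05 ± 0.11) did not pass. With median centring Tle2 and Tle5 were at -0.18 and -0.20 and did not pass (adjusted p = 0.532 and 0.505). Tle4 missed the threshold with the replicate block (adjusted p = 0.0616) and without KO replicate 2, KO replicate 3, WT replicate 2 or WT replicate 3 (adjusted p of 0.0715 to 0.132). Without WT replicate 3, Tcf7l1, Tle2 and Tle5 missed it too (adjusted p = 0.0744, 0.0634 and 0.0703).

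Of 23 further targets 16 were tested, and 5 rose and 2 fell, with a median of 0.17. Mycn, a growth-promoting factor of the MYC family, showed the largest increase in the 4 lists, with ratios of 0.16, 0.73 and 0.18 in WT and 2.68, 2.49 and 2.51 in KO. Its difference was 2.20 ± 0.17, a 4.6-fold higher level (adjusted p = 0.000347). Ccn4, also called Wisp1, a secreted matrix protein gene, rose by 1.36 ± 0.15 and Myc by 0.78 ± 0.15. Ppard fell by 0.39 on the log2 scale. Jun, named after its value was seen, differed by -1.59 ± 0.41 (adjusted p = 0.0262) with KO ratios of -2.49, -0.61 and -1.15. By the Agilent ratios both differences were as large but missed the threshold, at -1.59 for Jun (adjusted p = 0.0572) and -0.40 for Ppard (adjusted p = 0.0531). When slide row was blocked they were -1.46 and -0.36 (adjusted p = 0.226 and 0.211). With median centring Jun was at -1.17 (adjusted p = 0.0589) and Ppard at -0.11 (adjusted p = 0.728).

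**Figure D4:**
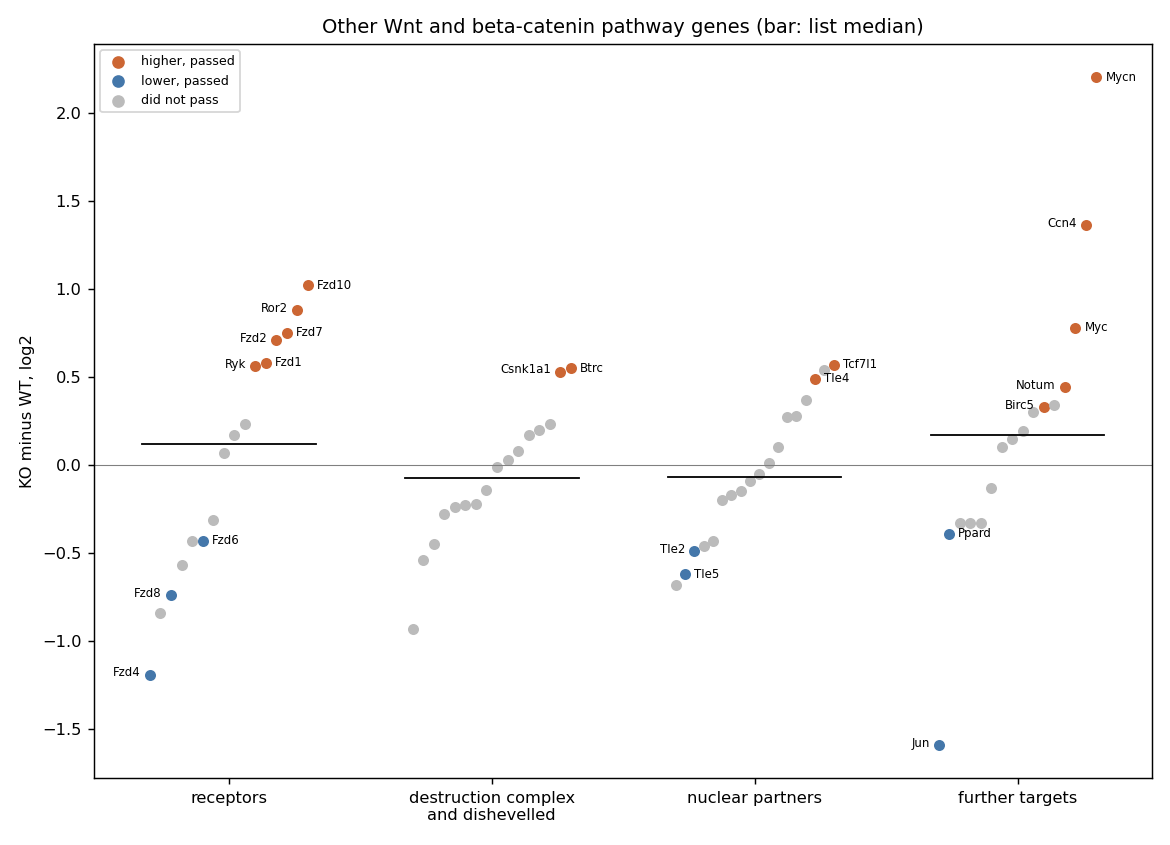
KO minus WT on the log2 scale (y axis) for 66 pathway genes in 4 lists by role (x axis), each gene a point, ordered within its list, with a bar at the list median. Orange and blue points passed the test as higher or lower and are named, grey ones did not pass. Receptors and further targets spread both ways, and the cytoplasmic list runs from -0.93 for Dvl3 to 0.55 for Btrc.

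Markers of several cell types moved in the same arrays. The member values cannot tell fewer cells of a type from less RNA per cell in such bulk samples. All 9 tested principal cell markers and all 9 intercalated cell markers fell (medians -1.67 and -2.42). The log2 of their summed, centred Cy5 levels was 6.70 to 6.84 in WT and 4.53 to 5.09 in KO for principal cells, and 5.54 to 6.24 and 3.08 to 3.41 for intercalated cells. Of 8 nephron progenitor markers 7 rose (median 2.32), with a summed level of 4.93 to 5.22 in WT and 6.12 to 7.11 in KO. Of 8 early nephron markers 5 rose (median 0.89, 4.79 to 4.96 in WT and 5.69 to 6.08 in KO). Of 9 stroma markers 6 rose (median 1.69, 3.84 to 5.56 in WT and 6.73 to 6.82 in KO). Of 7 ureteric tip markers 0 passed (median -0.12, 5.37 to 6.81 in WT and 6.16 to 6.25 in KO). Endothelial markers fell in 7 of 8 (differences of -1.35 to -0.29 over the 8), distal and loop markers in 4 of 4 (median -2.83) and proximal tubule markers in 2 of 5 (median -0.36). Of 7 immune cell markers 5 rose and 1 fell (median 0.99), and of 5 podocyte markers 1 rose (median 0.16). All of the markers tested were well above background on all 6 arrays in both groups, where testing required this on 3 or more arrays. Their part in the changes of the beta-catenin genes was not tested.

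**Figure D5:**
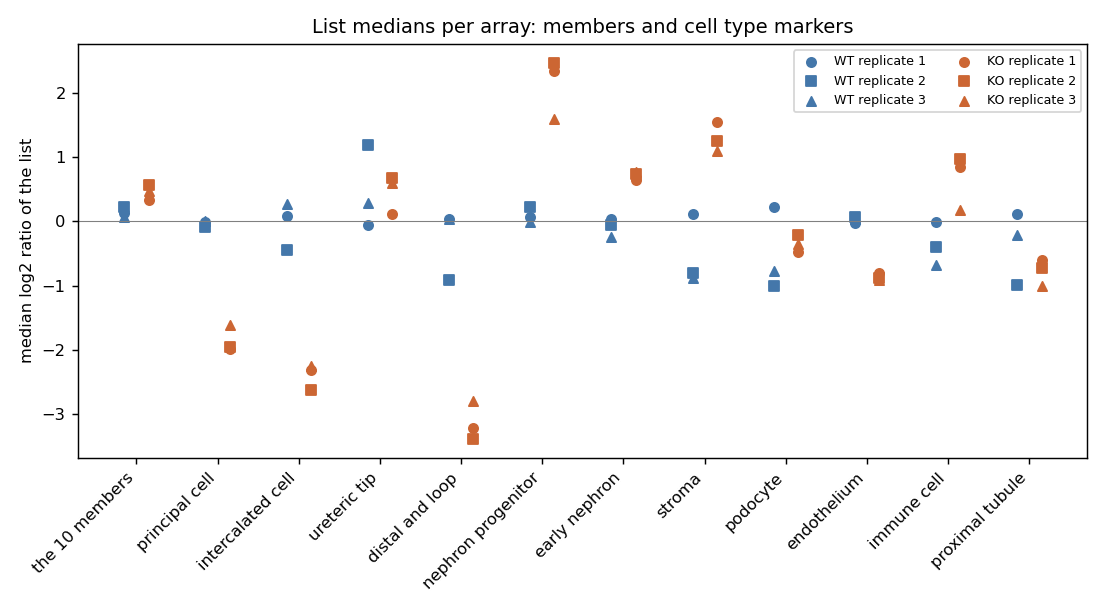
Median log2 ratio to the WT replicate 1 reference (y axis) of the 10 beta-catenin genes and of each cell type marker list (x axis) on each array, WT in blue and KO in orange, with a marker shape per replicate. Principal, intercalated and distal markers lie far lower in KO and nephron progenitor, early nephron and stroma markers higher, while the 10 genes move by less, with medians of 0.07 to 0.22 in WT and 0.34 to 0.57 in KO.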

How the data were processed

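RNA of 3 KO and 3 WT samples was labelled from 0.5 µg of total RNA, per the labels' protocols, and hybridised on 6 arrays of 1 slide, per the file headers. The deposited files hold, per the file headers, median spot and background intensity values and processed intensity values of both channels. The headers name Feature Extraction 10.7.3.1 as the software, whereas version 6.1 stands in the submitters' processing notes. These deposited files also give a log10 ratio of the processed signals, Cy5 over Cy3, which the authors' series matrix repeats to within 0.00499. The log2 ratios analysed were computed here from the deposited medians.

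Median intensities were background-corrected (normexp, offset 50) and normalised by loess within each array, with control spots at weight 0, in limma 3.58.1 and R 4.3.3. The offset is added to both channels and draws the ratios of dim probes towards 0. Outlier spots (196 to 403 per array) were left out, spots of a probe averaged, and 117 probes with a missing value dropped. Probes were named by accession through a RefSeq table of GRCm38.p6, which named 27509 of 55681. The test took in 29811 probes whose Cy5 signal passed the software's background limit on 3 or more arrays, so some passed mainly through 1 group. All 14 member probes passed this filter. KO minus WT was fitted with lmFit and eBayes, 2-sided, with Benjamini-Hochberg adjustment over all probes tested, and errors are moderated standard errors. A pathway gene was represented by its brightest tested probe.

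The members, gene lists and naming rule (all members, the 4 smallest p per list, and 3 genes of most like pattern) were chosen with earlier results of these data known. With 3 arrays per group, that number limits precision. WT replicates 2 and 3 lay in slide row 2 and all other arrays in row 1, so row was fitted as a block in 1 alternative. The others changed the background correction, the normalization (Agilent ratios, series matrix, median centring), the channel (Cy5 alone), the filter on dim probes, the probes per gene and the replicate block, or left out 1 array.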

Additional observations from a re-analysis of the deposited data

How the results depend on the processing

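Over 16 alternatives, all 110 values of the 7 member probes that passed kept their direction, and no call reversed. Among probes that did not pass, Ctnnb1 ranged from -0.10 to 0.34 and the dimmer Axin2 probe from -0.27 to 0.26. Of 216 values of the 14 probes, 195 stayed on the same side of the threshold, 17 lost the call and 4 gained one (Axin2 with Cy5 alone, and Znrf3 with the replicate block, without KO replicate 1 and without KO replicate 3). When slide row was blocked, the counts fell to 2182 probes (from 7550), 2 member probes (from 7) and 3 pathway genes (from 22). That fit compares KO with WT replicate 1 alone, so it cannot separate an effect of slide row from the smaller WT group. The cause of this fall was not tested. Leaving out single arrays gave 3804 to 9500 probes, 5 to 8 member probes and 8 to 28 pathway genes. The highest counts of probes and pathway genes came without KO replicate 1. The lowest came without WT replicate 3, and without WT replicate 1 the counts were 4857 and 14. The cause was not tested. Median centring in place of loess turned the split of calls, with 77.2% of 6018 higher against 44.0% of 7550, and moved the median of all probes to 0.22. The 7 member calls were the same there, while pathway calls became 16 higher and 0 lower. Replicate numbers are shared by the groups in the labels, but same-numbered arrays correlated weakly in their deviations (0.141, 0.073 and 0.193, each the highest for its number), so they were not taken as pairs. The replicate block gave 7240 probes, 8 member probes and 21 pathway genes. Dim probes limit what can be read for Axin2 and the second probes of Tcf7 and Tnfrsf19.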
